A study of Mus musculus with 9 samples.

Results

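Described here are 7 genes of cholesterol synthesis and its control: the regulator Srebf2 and the enzymes Hmgcs1, Idi1, Fdps, Fdft1, Sqle and Lss. They were chosen by name from the 31685 genes of the expression table, with earlier results of these data known. Their transcripts were read in jejunal tissue of 9 wild-type C57BL/6J mice, taken on day 3. The control group (n = 3) was not treated, the TAI group (n = 3) received a single 12 Gy total abdominal irradiation with X-rays at 75 cGy/min, and the TAI/IVIg group (n = 3) received the same irradiation and 500 mg/kg of intravenous immunoglobulin, a pooled human IgG preparation, within 1 h and then every 3 days. The series description gives PBS as the vehicle after irradiation, and the study bought its C57BL/6J mice as males aged 6 to 8 weeks. The comparisons ask how irradiation, and the immunoglobulin given after it, moved these transcripts.

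Cells build cholesterol from acetyl-CoA through mevalonate, isoprenoid units, squalene and lanosterol. The transcription factor SREBP2, made from Srebf2, stays in the endoplasmic reticulum with SCAP and the INSIG proteins while sterols are plentiful. When they fall, it is cut by a pair of proteases and enters the nucleus, where it raises transcription of nearly every enzyme of the route, of genes of sterol uptake and of its own gene. Jejunal enterocytes also take up cholesterol from the lumen through NPC1L1, so that synthesis and absorption feed the same pool.

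SREBP2 acts at sterol regulatory elements close to start sites, usually beside a CCAAT box bound by NF-Y, and so the sequences before the start sites of members were searched for both. RefSeq start-site sequences (GRCm38.p6) were matched for 4 of the 7 members, Hmgcs1, Idi1, Lss and Srebf2. Within the 250 bases before the start site, on both strands, the letters TCACNCCA (a sterol regulatory element core) were present in 2 of the 4, and CCAAT, or ATTGG on the other strand, in all 4. The motifs do not overlap each other in these sequences and were chosen after the sequences had been seen. In all 32851 such sequences the shares were 3.67% for TCACNCCA, 33.8% for CCAAT and 1.29% for both. Over the 19 sequences matched for 16 genes of the synthesis route, 2 held TCACNCCA (those of Hmgcs1 and Msmo1) and 15 held CCAAT (78.9%). The sequences of Hmgcs1 and Srebf2 are shown because they hold both elements and that of Lss as a member with a CCAAT box alone, with matches in capitals, 5′ to 3′ on the plus strand and ending before the start of the gene in the GENCODE M21 annotation.
Hmgcs1 (chr13:119690101-119690350): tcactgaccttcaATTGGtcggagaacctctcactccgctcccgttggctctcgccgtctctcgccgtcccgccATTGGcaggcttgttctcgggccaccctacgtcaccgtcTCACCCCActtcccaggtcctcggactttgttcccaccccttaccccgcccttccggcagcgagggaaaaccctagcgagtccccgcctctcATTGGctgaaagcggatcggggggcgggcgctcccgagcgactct
Srebf2 (chr15:82147019-82147180): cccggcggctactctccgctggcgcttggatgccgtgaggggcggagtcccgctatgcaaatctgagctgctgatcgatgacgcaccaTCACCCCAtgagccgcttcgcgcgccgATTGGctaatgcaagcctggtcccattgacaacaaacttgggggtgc
Lss (chr10:76531355-76531587): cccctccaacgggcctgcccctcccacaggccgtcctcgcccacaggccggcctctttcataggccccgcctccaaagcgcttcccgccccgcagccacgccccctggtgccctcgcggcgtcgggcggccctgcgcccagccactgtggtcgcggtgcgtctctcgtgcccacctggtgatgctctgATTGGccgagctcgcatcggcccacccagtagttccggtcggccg
The core TCACCCCA began 137 bases before the RefSeq start site in Hmgcs1 and 162 bases before it in Srebf2. In Hmgcs1 3 ATTGG boxes were found, the nearest 45 bases before the start site, while Srebf2 had its single box 135 bases before and Lss 62 bases before. In Idi1 the 2 boxes, 45 and 14 bases before the RefSeq start site, lie past the start of the GENCODE gene. A match of letters describes the sequence and shows no binding.

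Values are FPKM, reads scaled to gene length and to library size. For most genes the length counts all annotated exon bases (10787 for Lss, of which 2223 are coding). For Fdft1 the length implied by the values was 4116 bases, against 4227 annotated. Levels of different genes are therefore only roughly comparable. Libraries held 16284386 to 18244535 reads, as recovered from the steps of the FPKM values. Groups were compared with limma on log2(FPKM + 1) over the 13056 genes that reached 1 FPKM in at least 3 mice, with Benjamini-Hochberg adjustment, and "passed" means an adjusted p under 0.05. P-values measure the spread between these mice only. Over all tested genes the median log2 fold change was below 0, at -0.235 in TAI against control, -0.393 in TAI/IVIg against control and -0.128 in TAI/IVIg against TAI. With the library medians set equal these medians became 0.052, 0.098 and 0.075, and of the genes that passed, those higher and lower went from 1150 and 3411 to 2159 and 1823 in TAI against control and from 1183 and 4880 to 2880 and 1894 in TAI/IVIg against control. Member counts are therefore given under both scalings. In bulk tissue, fewer cells of a type and less RNA per cell cannot be told apart.

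The label calls the samples jejunal epithelial tissue. All 8 enterocyte markers and all 5 pan-epithelial markers were present in every group, the enterocyte markers summing to 10900 to 17300 FPKM in the control mice, 21300 to 35400 in the TAI mice and 31500 to 33700 in the TAI/IVIg mice. Fabp2 alone had means of 9030, 20000 and 20600 FPKM in the same order. Smooth muscle markers were not absent, at 447 to 581, 494 to 708 and 104 to 510 FPKM in the same order, and none of the muscle, stromal or immune markers was at 0 in any group, so that the pieces held more than epithelium. The library of TAI mouse 3 stands apart from the other TAI mice in the sterol genes, and the results on the members and the counts over the lists in TAI are given with and without it.

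Srebf2 (ENSMUSG00000022463, chr15:82147181-82205379, plus strand) encodes SREBP2 itself. Its FPKM was 19.3, 20.3 and 27.0 in control mice 1 to 3, then 17.9, 18.6 and 9.64 in the TAI mice and 8.46, 11.7 and 9.79 in the TAI/IVIg mice, on 1093 to 3362 reads. All control mice were above all TAI mice, and TAI mouse 3 lay within the range of the TAI/IVIg mice. The control mean was 22.2 ± 4.19 (SD, n = 3), the TAI mean 15.4 ± 5.00 and the TAI/IVIg mean 9.98 ± 1.62, 2.23-fold lower than control. The log2 fold change of TAI/IVIg against control was -1.08 (standard error 0.25, limma adjusted p = 0.00811), but -0.59 with an adjusted p of 0.0718 once library medians were set equal. That of TAI against control was -0.54 (adjusted p = 0.121), and it was -0.25 (adjusted p = 0.335) without TAI mouse 3.

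Hmgcs1 (ENSMUSG00000093930, chr13:119690379-119708260, plus strand), the cytosolic HMG-CoA synthase, had the highest FPKM of the 7 genes. Its FPKM was 66.4, 48.3 and 65.7 in control, 50.6, 50.0 and 20.7 in TAI, and 22.3, 34.8 and 30.2 in TAI/IVIg. TAI mice 1 and 2 lay inside the control range, whereas TAI mouse 3 was the lowest of all 9 mice. The TAI/IVIg mean was 29.1 ± 6.30 against 60.1 ± 10.3 in control (SD, n = 3 in each), a 2.07-fold lower level that passed (log2 fold change -1.03, standard error 0.33, limma adjusted p = 0.0315). It did not pass with library medians set equal (log2 fold change -0.54, adjusted p = 0.244). TAI against control gave -0.65 (adjusted p = 0.156), and -0.24 (adjusted p = 0.432) without TAI mouse 3. Of its exon bases 12.1%, and of its coding bases 35.1%, are shared with an antisense gene, Gm48342, that was at 0.123 FPKM or less. Whether the counting used strand is not given in the sources used here.

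Idi1 (ENSMUSG00000058258, chr13:8885501-8892451, plus strand) interconverts the 2 isoprenoid building blocks. It was at 8.21, 11.9 and 10.3 FPKM in control, 7.78, 8.43 and 2.05 in TAI and 1.81, 3.64 and 2.59 in TAI/IVIg, on 114 to 737 reads. TAI mouse 3 was 3.95-fold below the mean of TAI mice 1 and 2, the widest such gap of the 7 genes, and lay among the TAI/IVIg mice. The mean fell from 10.1 ± 1.85 in control to 2.68 ± 0.921 in TAI/IVIg (SD, n = 3 in each), 3.78-fold (log2 fold change -1.61, standard error 0.40, limma adjusted p = 0.0114), and it passed narrowly with equal medians (log2 fold change -1.12, adjusted p = 0.049). TAI against control gave -0.80 (adjusted p = 0.151), and -0.28 (0.4) without TAI mouse 3.

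Fdps (ENSMUSG00000059743, chr3:89093588-89101959, minus strand), which joins isoprenoid units to farnesyl diphosphate, was read at very low values. Its FPKM was 0.369, 0.524 and 0.686 in control, 0.485, 0.511 and 0.313 in TAI, and 0.172, 0.266 and 0.255 in TAI/IVIg, on 13 to 50 reads. The TAI/IVIg mice were below all other mice, but no mouse reached 1 FPKM and the gene was not tested. Of its coding bases 85.9% also belong to Gm43738, a gene of the same strand that was at 0.021 FPKM or less. Reads on exons of more than a single gene are left out by featureCounts in its default setting, and whether that setting was used is not given in the sources used here. The level of Fdps is therefore not comparable with those of the other enzymes.

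Fdft1 (ENSMUSG00000021273, chr14:63145150-63179578, minus strand), squalene synthase, takes the first step that is committed to sterols. Its FPKM was 23.5, 19.1 and 24.6 in control, 19.0, 17 and 7.91 in TAI, and 8.86, 9.15 and 7.43 in TAI/IVIg. The TAI/IVIg mice lay close together, with TAI mouse 3 among them, and the lowest control mouse was just above the highest TAI mouse. The mean fell 2.64-fold from control to TAI/IVIg, from 22.4 ± 2.88 to 8.48 ± 0.921 (SD, n = 3 in each, log2 fold change -1.30, standard error 0.28, limma adjusted p = 0.0058). With equal medians the log2 fold change was -0.81 (adjusted p = 0.0539). For TAI against control it was -0.66 (adjusted p = 0.0953), and -0.29 (0.2) without TAI mouse 3. The gene shares 18.3% of its 4227 GENCODE M21 exon bases, none of them coding, with Ctsb on the opposite strand, which reached 150 FPKM. The length behind its FPKM was 4116 bases. Whether the counting used strand is not given in the sources used here.

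Sqle (ENSMUSG00000022351, chr15:59315077-59331192, plus strand), squalene epoxidase, is a rate-limiting step of the sterol branch. It was at 32.1, 21.4 and 29.8 FPKM in control, 15.9, 15.6 and 6.10 in TAI and 5.33, 9.13 and 6.34 in TAI/IVIg, on 532 to 3093 reads. Every control mouse was above every irradiated mouse. The TAI mean of 12.5 ± 5.57 was 2.22-fold below the control mean of 27.8 ± 5.66 (SD, n = 3 in each), and the fall passed (log2 fold change -1.17, standard error 0.34, limma adjusted p = 0.0278). It did not pass without TAI mouse 3 (log2 fold change -0.76, adjusted p = 0.0507), without control mouse 1 (-1.06, 0.0714), without control mouse 3 (-1.11, 0.0821) or with equal medians (-0.89, 0.077). From control to TAI/IVIg, with a mean of 6.93 ± 1.96, Sqle fell 4.00-fold (log2 fold change -1.87, standard error 0.34, adjusted p = 0.00296), the largest log2 fall of the 6 tested members, and this passed with equal medians as well (-1.37, adjusted p = 0.0132).

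Lss (ENSMUSG00000033105, chr10:76531588-76557138, plus strand), lanosterol synthase, closes the ring system of the first sterol. Its FPKM was 2.80, 3.43 and 3.11 in control, 2.00, 2.02 and 0.823 in TAI, and 0.526, 1.02 and 0.464 in TAI/IVIg, on 84 to 654 reads. The control mice again lay above all irradiated mice, and TAI mouse 3 lay among the TAI/IVIg mice. The TAI mean of 1.61 ± 0.684 was 1.93-fold below the control mean of 3.11 ± 0.315 (SD, n = 3 in each, log2 fold change -0.69, standard error 0.22, limma adjusted p = 0.0407). That call was lost without any 1 of control mice 1, 2 and 3 and TAI mice 1 and 3 (adjusted p of 0.0563, 0.111, 0.0931, 0.0606 and 0.108), and with equal medians (log2 fold change -0.40, adjusted p = 0.161). From control to TAI/IVIg, where the mean was 0.670 ± 0.305, it fell 4.65-fold in mean FPKM (log2 fold change -1.31, standard error 0.22, adjusted p = 0.00224), also with equal medians (-0.82, adjusted p = 0.0134). The log2(FPKM + 1) scale understates the change of a gene at this level. Of the coding bases of Lss 8.5% are shared with an antisense gene, 4930483K19Rik, that was at 0.177 FPKM or less.

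**Figure D1:**
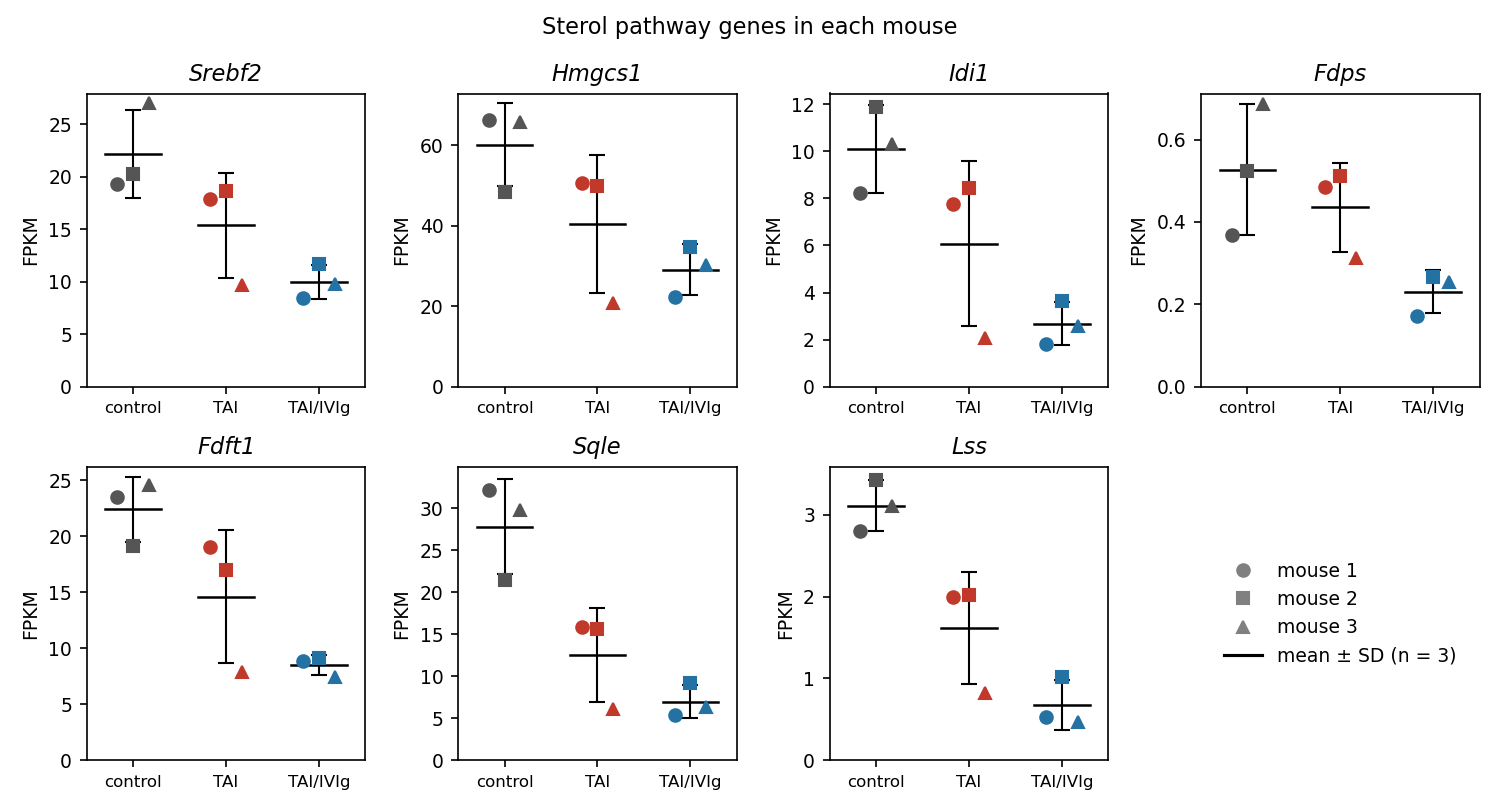
FPKM of the 7 genes in each mouse, with points for the 3 mice of each group, shaped by mouse number, and lines and bars for the mean and SD (n = 3). TAI mouse 3, the triangle in the TAI group, is the lowest TAI mouse in every panel and lies at or below the highest TAI/IVIg mouse in all but Fdps.

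In TAI against control, 2 of the 6 tested members passed, Sqle and Lss, both lower, where 26.1% of all tested genes passed as lower and 8.81% as higher. The unadjusted p was under 0.05 for 3 (Sqle, Lss and Fdft1). With library medians set equal 0 members passed in limma, where 1823 of the 13056 tested genes were lower and 2159 higher. Limma voom on the recovered reads called 2 members with total and 0 with median-ratio library sizes. All TAI mice lay below all control mice in 4 of the 6 (Srebf2, Fdft1, Sqle and Lss), against 38.0% of all tested genes. The median log2 fold change of the 6 was -0.68 against -0.235 for all tested genes, and without TAI mouse 3 it was -0.29, with 0 members passing, 2 (Sqle and Lss) at an unadjusted p under 0.05, and 18.5% of all tested genes passing as lower.

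In TAI/IVIg against control, all 6 tested members passed as lower, where 37.4% of all tested genes did and 9.06% passed as higher. Their log2 fold changes ran from -1.87 to -1.03, with a median of -1.31 against -0.393 for all tested genes. No TAI/IVIg mouse overlapped a control mouse in any of the 6, which held for 44.3% of all tested genes in this direction. With library medians set equal, 3 members passed (Idi1, Sqle and Lss) and the median was -0.82. Of the 13056 tested genes, 1894 then passed as lower and 2880 as higher. The call of Hmgcs1 was also lost without control mouse 1, control mouse 3, TAI/IVIg mouse 1 or TAI/IVIg mouse 3 (adjusted p of 0.0794, 0.0905, 0.0941 and 0.0667). The TAI and TAI/IVIg comparisons share the 3 control mice. As the members were chosen with earlier results of these data known, their counts beside all tested genes are a description.

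In TAI/IVIg against TAI, the comparison of immunoglobulin with irradiation alone, the log2 fold changes of the members were -0.38 for Hmgcs1, -0.54 for Srebf2, -0.62 for Lss, -0.64 for Fdft1, -0.69 for Sqle and -0.81 for Idi1. None of the 6 passed in limma (adjusted p of 0.36 to 0.611) or in limma voom with either library size, as for 0% of all tested genes in either direction, and 2 (Fdft1 and Lss) had an unadjusted p under 0.05, where 11.2% of all tested genes were lower and 1.64% higher at that level. The 95% intervals ran from -1.13 to 0.37 for Hmgcs1 and from -1.72 to 0.10 for Idi1, so that neither an equal level nor a fall of 2-fold was outside these intervals. Those of Fdft1 (-1.27 to -0.01) and Lss (-1.13 to -0.12) left out an equal level. The intervals are not adjusted for the number of genes. None of the 6 tested members had all TAI/IVIg mice below all TAI mice, against 16.1% of all tested genes, although Fdps, which was not tested, did. Without TAI mouse 3, the median of the 6 went from -0.63 to -0.94, and all 6 had an unadjusted p under 0.05, from 0.000253 for Fdft1 to 0.00679 for Hmgcs1, with adjusted p of 0.353 to 0.41, where 8.56% of all tested genes were lower at that level in the same fit. That mouse was singled out as the lowest TAI mouse in these same genes. A larger fall without it was therefore built in, and these p-values give no separate evidence. Without TAI mouse 1 or 2 the falls were smaller than in the main fit in all 6, as in Idi1 (-0.57 and -0.52). The means of all 7 genes stood in the order control, TAI, TAI/IVIg, which was the order for 46.4% of all tested genes, and the step from TAI to TAI/IVIg passed for none of the 6 tested.

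TAI mouse 3 set the spread of the TAI group. It was the lowest TAI mouse in all 6 tested members and in 16 of the 20 tested synthesis genes, against 36.2% of all tested genes (4728 of 13056). Its median difference from TAI mice 1 and 2 was -1.16 on the log2(FPKM + 1) scale for the members, -0.61 for the synthesis genes and 0 for all tested genes. TAI mice 1 and 2 lay above every TAI/IVIg mouse, with TAI mouse 3 not above the highest of them, in 6 of the 7 members and 14 of the 20 synthesis genes, against 8.26% of all tested genes, a pattern that was counted after the values had been seen. Its recovered reads, 18244535, were the highest of the 9 libraries. Among the marker lists its summed immune markers were at 233 FPKM against 42.0 and 68.2 in TAI mice 1 and 2, with the B cell gene Cd79a at 29.9 against 1.2 and 1.31 and the myeloid gene Lyz2 at 192 against 33.3 and 56.4. Lyz2 made most of that sum. Ptprc, Cd3e and Cd68 were at 4.0, 0.793 and 4.97 against means of 2.02, 0.501 and 4.42 in TAI mice 1 and 2. Itgam was lower in TAI mouse 3, at 1.3 against a mean of 2.04. Control mouse 3 (388 FPKM) and TAI/IVIg mouse 2 (239 FPKM) also had high immune sums. TAI mouse 3 had the highest enterocyte sum (35400 FPKM) and smooth muscle sum (708 FPKM) of the 9 mice. Most of that enterocyte sum was Fabp2 (26600 FPKM, against a mean of 16600 in TAI mice 1 and 2). In 4 of the 8 enterocyte genes TAI mouse 3 was the lowest TAI mouse. Its Scd1, a fatty acid desaturase, was at 115 FPKM against 12.1 and 32.4 in TAI mice 1 and 2. The part of these markers and of Scd1 in the sterol values of TAI mouse 3 was not tested.

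The whole route was read from 21 synthesis genes, of which 20 were tested (all but Fdps). In TAI against control 10 passed as lower and 3 as higher, with a median log2 fold change of -0.64. Of all tested genes 26.1% passed as lower and 8.81% as higher in that comparison. With library medians set equal, 2 were lower (Mvk and Lbr) and the same 3 higher, with a median of -0.36, and without TAI mouse 3 the counts were 4 and 2. Of the 13056 tested genes, 1823 were lower and 2159 higher with equal medians, and 18.5% were lower without TAI mouse 3. The 13 calls became 3 without control mouse 3, 5 without control mouse 2 or TAI mouse 1, and 8 without control mouse 1. Of the 20 genes, 17 passed as lower in TAI/IVIg against control and 2 as higher (median -1.08), and 9 and 3 with equal medians (median -0.58). Of all tested genes 37.4% were lower and 9.06% higher, and with equal medians 1894 of 13056 were lower and 2880 higher. Between TAI/IVIg and TAI 0 passed in limma or in limma voom, 5 had an unadjusted p under 0.05, all lower (among them Pmvk, Fdft1, Lss and Cyp51), and 14 did without TAI mouse 3. At that level 11.2% of all tested genes were lower, and 8.56% without TAI mouse 3. That mouse was the lowest TAI mouse in 16 of the 20 genes. A larger number without it was therefore built in and gives no separate evidence.

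Of the mevalonate steps that are no members, Mvk, mevalonate kinase, was at 8.80, 10.7 and 9.44 FPKM in control, 4.97, 5.07 and 2.52 in TAI and 2.31, 4.09 and 3.12 in TAI/IVIg. All control mice were above all irradiated mice, and its fall in TAI passed under both scalings (log2 fold change -1.07, limma adjusted p = 0.0101, and -0.79, adjusted p = 0.0303, with equal medians). The thiolase Acat2 (-0.97, adjusted p = 0.0266), the kinase Pmvk (-0.64, 0.0322) and the decarboxylase Mvd (-1.0, 0.0323) passed as lower in TAI against control, but not with equal medians (0.0644, 0.178 and 0.0688) or without TAI mouse 3 (0.0852, 0.0802 and 0.0924).

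After lanosterol, Cyp51, the lanosterol demethylase, followed the members, at 39.8, 38.9 and 41.1 FPKM in control, 24.8, 26.8 and 13.6 in TAI and 11.1, 14.6 and 12.2 in TAI/IVIg. Its control mice differed little from each other, and it fell in TAI (log2 fold change -0.91, limma adjusted p = 0.0168, also without TAI mouse 3, -0.61, 0.0212, but not with equal medians, -0.62, 0.0737) and in TAI/IVIg against control (-1.60, 0.0012). Msmo1, Nsdhl and Hsd17b7, which act on the methyl groups of the ring, gave -0.47, -0.60 and -0.43 in TAI against control, of which Nsdhl passed (adjusted p = 0.0236, but 0.0669 without TAI mouse 3), and -0.88, -0.84 and -0.78 in TAI/IVIg against control, where all 3 passed, though none with equal medians (adjusted p of 0.157 to 0.278). The isomerase Ebp (-0.55, adjusted p = 0.0138) passed in TAI and Dhcr7 (-0.55, 0.0713) did not, although with the replicate number as a block Dhcr7 did (0.0491).

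Against the direction of the members, late enzymes were higher in TAI than in control under both scalings, among them Sc5d and Tm7sf2. Sc5d, a sterol desaturase, was at 24.1, 26.1 and 21 FPKM in control, 35.3, 35.5 and 28.1 in TAI and 34.5, 39.4 and 43.1 in TAI/IVIg. Both irradiated groups were above all control mice (log2 fold changes 0.46, adjusted p = 0.04, and 0.69, adjusted p = 0.00555).

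Tm7sf2 and Lbr encode proteins with the same sterol reductase activity, Lbr also being the lamin B receptor of the nuclear envelope, and they moved in opposite directions in TAI. Tm7sf2 was at 2.17, 4.06 and 2.32 FPKM in control, 4.40, 4.35 and 5.10 in TAI and 3.06, 3.31 and 3.68 in TAI/IVIg. It passed as higher in TAI (log2 fold change 0.58, limma adjusted p = 0.0414), not without TAI mouse 3 (0.51, 0.116), and in TAI/IVIg against control only with equal medians (0.70, 0.0265, against 0.21, 0.38). Lbr was at 5.81, 13.7 and 16.4 FPKM in control, 2.48, 4.41 and 3.28 in TAI and 1.52, 2.84 and 1.09 in TAI/IVIg, on 87 to 1353 reads. It had the largest log2 fall of the route in both comparisons with control (-1.48, adjusted p = 0.015, and -2.14, adjusted p = 0.00225). Control mouse 1 was the lowest control mouse in Lbr, and also the lowest in the summed proliferation markers, at 63.6 FPKM against 156 and 152 in control mice 2 and 3.

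**Figure D2:**
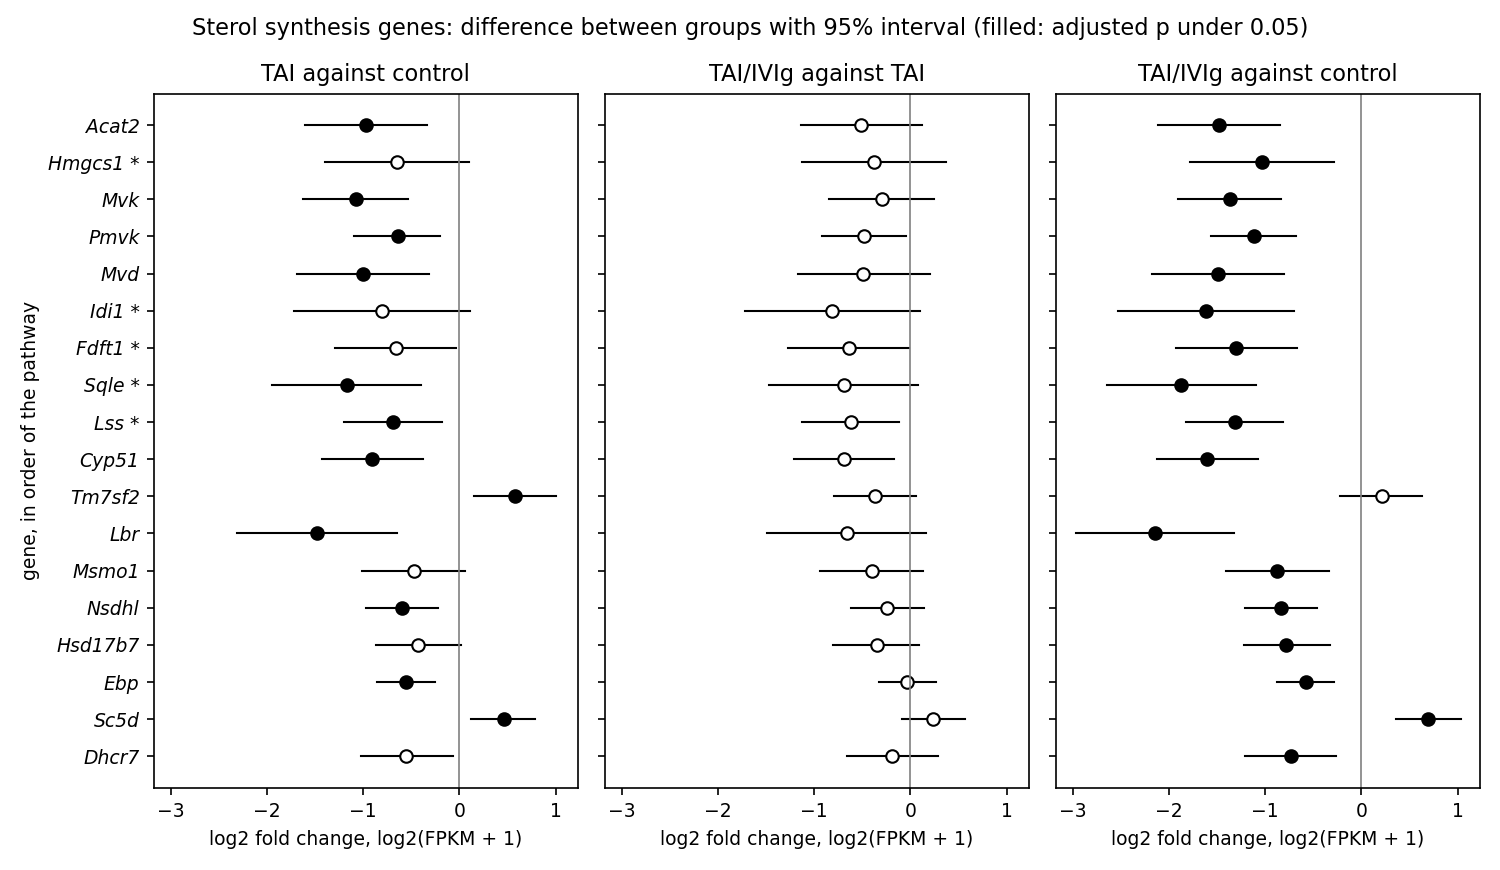
Log2 fold changes of 18 of the 20 tested synthesis genes in pathway order, on the log2(FPKM + 1) scale, with 95% intervals, in the 3 comparisons, members marked by an asterisk and genes with a limma adjusted p under 0.05 filled. The points lie left of 0 from Acat2 to Cyp51 in all 3 panels, and Tm7sf2 and Sc5d lie to the right in both comparisons with control.

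The next genes are those of the machinery that controls SREBP2. Of its 7 tested genes, Srebf2 included, 1 passed in TAI against control, Mbtps2, the site-2 protease, lower (log2 fold change -0.43, limma adjusted p = 0.0381, -0.15, 0.308, with equal medians, and -0.42, 0.0944, without TAI mouse 3). Against control, TAI/IVIg had 4 genes that passed as lower (Srebf2, Scap, Insig1 and Mbtps2) and 1 as higher, and with equal medians 0 lower and the same 1 higher. In the main scaling 26.1% of all tested genes passed as lower in TAI, and 37.4% as lower and 9.06% as higher in TAI/IVIg. With equal medians 1894 of 13056 were lower and 2880 higher in TAI/IVIg. Insig1, the sterol-responsive anchor that is also an SREBP target, was at 13.0, 15.9 and 15.5 FPKM in control, 12.1, 13.0 and 7.78 in TAI and 5.47, 10.7 and 8.79 in TAI/IVIg. TAI mouse 3 again lay with the TAI/IVIg mice. Srebf1, which encodes SREBP1, the regulator of fatty acid genes, went the other way from Srebf2, at 5.33, 7.26 and 6.59 FPKM in control, 7.59, 8.32 and 8.73 in TAI and 9.14, 10.4 and 9.72 in TAI/IVIg. The groups did not overlap, and the rise in TAI/IVIg against control passed under both scalings (0.54, adjusted p = 0.0105, and 1.04, adjusted p = 0.000685), that in TAI only with equal medians (0.61, 0.00805, against 0.32, 0.0891). Scap, Mbtps1 and Insig2 gave -0.22, -0.42 and -0.05 in TAI against control. With the replicate number as a block, Mbtps1 passed in TAI (adjusted p = 0.0411) and Mbtps2 did not (0.0511).

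Of the uptake and trafficking genes, 7 of 8 were tested (Scarb1 was not), with 3 lower and 2 higher in TAI and 4 lower and 2 higher in TAI/IVIg against control. The shares of all tested genes were 26.1% lower and 8.81% higher in TAI, and 37.4% and 9.06% in TAI/IVIg. Without TAI mouse 3 2 were lower and 2 higher in TAI. With equal medians 1 was lower and 2 higher in TAI, and 3 and 2 in TAI/IVIg. Of all 13056 tested genes, 1823 were then lower and 2159 higher in TAI, and 1894 and 2880 in TAI/IVIg. Tmem97, the sigma-2 receptor and an SREBP2 target, showed the largest log2 fall in TAI of all genes on the sterol lists, from 21.7, 43.7 and 29.2 FPKM in control to 6.32, 7.86 and 4.15 in TAI, and stood at 3.11, 7.53 and 5.38 in TAI/IVIg. The fall was 5.16-fold in mean FPKM (log2 fold change -2.17, limma adjusted p = 0.00228) and passed without TAI mouse 3 (-1.96, 0.00934) and with equal medians (-1.89, 0.00333). Unlike in the members, TAI and TAI/IVIg means were close (6.11 ± 1.87 and 5.34 ± 2.21, SD, n = 3 in each, log2 fold change -0.19, 95% interval -0.95 to 0.56). Npc1l1, the transporter that takes cholesterol up from the lumen, was at 178, 161 and 113 FPKM in control, 283, 223 and 267 in TAI and 291, 257 and 316 in TAI/IVIg. All irradiated mice were above all control mice, a rise of 1.71-fold in TAI (0.79, adjusted p = 0.0144) and 1.92-fold in TAI/IVIg (0.95, adjusted p = 0.00458), which passed with equal medians too. Npc1, which releases cholesterol from lysosomes, rose in TAI (0.47, adjusted p = 0.0203), and its partner Npc2 fell (-0.63, adjusted p = 0.0277), the latter not with equal medians (-0.34, 0.0921). The sterol carrier Stard4 passed as lower in TAI (-0.86, adjusted p = 0.0402), but not without TAI mouse 3 (-0.78, 0.108) or with equal medians (-0.57, 0.142).

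All 9 genes of esterification and export were tested. In TAI 1 passed as higher, Abca1, the exporter to lipoproteins, a share near the 8.81% of all tested genes, and 0 as lower, and without TAI mouse 3 none passed in limma. In TAI/IVIg against control 3 were higher (Abca1, Abcg5 and Nr1h2) and 1 lower (Abcg1, -0.76, adjusted p = 0.0481, but 0.0505 without TAI mouse 3), and with the replicate block 2 were higher and 0 lower. With equal medians 2 were higher in TAI and 5 in TAI/IVIg, and 0 lower, where 2159 and 2880 of all 13056 tested genes were higher. In the main scaling 9.06% of all tested genes passed as higher in TAI/IVIg against control, and 37.4% as lower. Abca1 was at 4.65, 8.38 and 7.65 FPKM in control, 11.4, 12.2 and 16.1 in TAI and 10.3, 17.2 and 15.5 in TAI/IVIg, so that every irradiated mouse was above every control mouse (log2 fold changes 0.87, limma adjusted p = 0.0254, and 0.96, adjusted p = 0.0127). The first did not pass without TAI mouse 3 (0.73, 0.0815). Abcg5, a subunit of the transporter that returns sterols to the lumen, was at 68.1, 68.5 and 44.5 FPKM in control, 66.8, 68.7 and 97.1 in TAI and 73.6, 123 and 118 in TAI/IVIg. TAI mouse 3 was the highest TAI mouse, the reverse of its place in the members. Its partner Abcg8 gave 0.26 in TAI/IVIg against control (adjusted p = 0.416). Soat2, which esterifies cholesterol in enterocytes, had means of 110 ± 21.2, 109 ± 11.6 and 142 ± 14.0 FPKM in the 3 groups (SD, n = 3), and did not pass in the main scaling (TAI/IVIg against control 0.38, adjusted p = 0.1, and 0.87, 0.0173, with equal medians). Soat1, Abcg8, Nr1h3 and Mylip passed in no comparison of the main scaling.

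**Figure D3:**
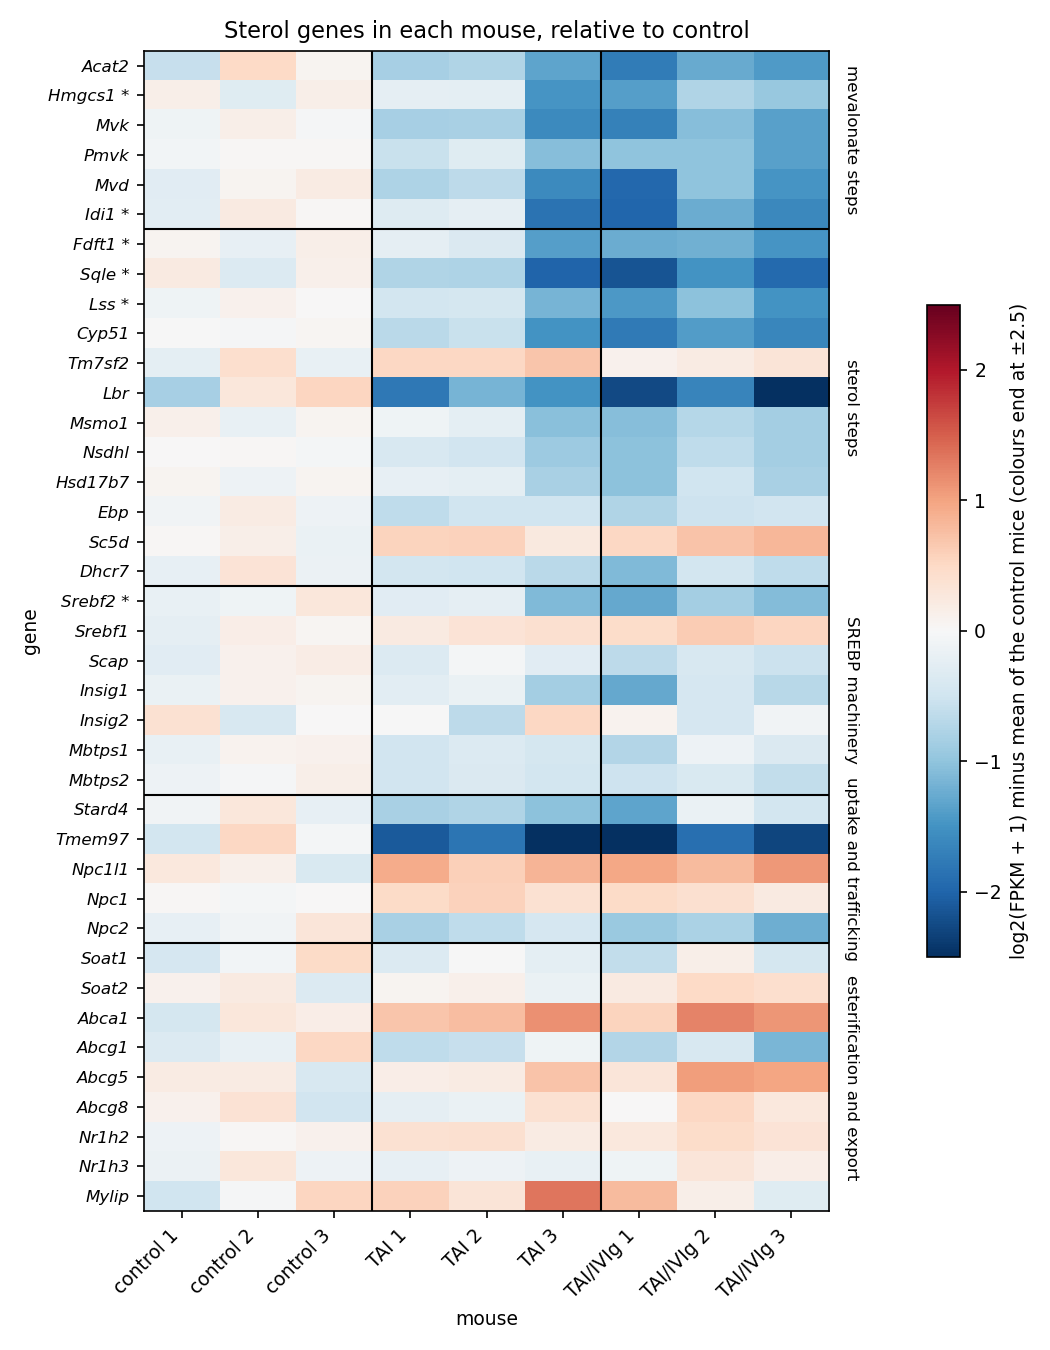
Log2(FPKM + 1) of tested genes of 5 sterol lists in each of the 9 mice, minus the mean of the 3 control mice, blue for lower and red for higher, with members marked by an asterisk. The column of TAI mouse 3 is darker blue than those of TAI mice 1 and 2 in all 6 mevalonate genes shown, and the rows of Sc5d, Npc1l1 and Abca1 are red in all irradiated mice.

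The branches that leave the route, and the fatty acid genes that SREBP1 and SREBP2 partly share, were read in the same way. The share of all tested genes that passed as lower in TAI was 26.1%, and 18.5% without TAI mouse 3. With equal medians 1823 of 13056 passed as lower and 2159 as higher. Of 8 tested isoprenoid genes, 4 passed as lower in TAI against control and 0 as higher, 3 without TAI mouse 3, 5 with the replicate block, where Pggt1b passed (adjusted p = 0.0424), and 2 with equal medians (Pdss1 and Pdss2, the subunits that make the side chain of ubiquinone), with 1 then higher (Fntb, 0.46, adjusted p = 0.0491, against 0.17, 0.295). Pdss1 was at 5.95, 8.92 and 7.15 FPKM in control, 2.05, 2.49 and 1.47 in TAI and 1.66, 3.38 and 2.13 in TAI/IVIg (TAI against control -1.47, limma adjusted p = 0.00225). Its TAI and TAI/IVIg mice overlapped, as they did for Pdss2 (-0.88, adjusted p = 0.0127). The farnesyltransferase subunit Fnta was at -0.57 (adjusted p = 0.0207). Of 10 fatty acid genes 4 passed as lower in TAI, 3 without TAI mouse 3, 3 with the replicate block, where Me1 did not (0.0786), and 1 with equal medians, the desaturase Fads2, at 9.27, 27.6 and 14.8 FPKM in control and 2.5, 2.98 and 3.01 in TAI (-2.13, adjusted p = 0.00411). Elovl6 and Acss2 were at -0.63 (adjusted p = 0.0153) and -0.50 (0.0442, but 0.0953 without TAI mouse 3). The fatty acid synthase Fasn (0.46, adjusted p = 0.487) and the desaturase Scd1 (1.15, 0.428) did not pass, and TAI mouse 3 was the highest TAI mouse in both.

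The members varied together from mouse to mouse. Over the 9 mice, the 15 pairs of the 6 tested members had correlations of log2(FPKM + 1) from 0.89 to 0.97, with a median of 0.96, and from 0.91 to 0.98 over the 8 mice without TAI mouse 3. These describe 9 libraries that share their 3 groups and their scaling. By likeness to the mean profile of the 6 enzymes (Pearson r over the 9 mice), Srebf2, which is not part of that mean, ranked first of all tested genes at 0.992 and Cyp51 second at 0.983. Without TAI mouse 3 they ranked 1 and 3, at 0.991 and 0.984. Hsd17b7, Msmo1 and Mvd lay between 0.961 and 0.977, while Sc5d was at -0.65 and Npc1l1 at -0.816. Outside the lists the 5 most alike were Zdhhc21 (0.982), Krt7 (0.964), Ncoa1 (0.963), Mboat1 (0.953) and Sipa1l1 (0.952). Krt7, a keratin of simple epithelia, was at 27.0, 17.9 and 25.3 FPKM in control, 7.87, 12.3 and 3.57 in TAI and 1.44, 3.69 and 1.83 in TAI/IVIg. Mboat1, an acyltransferase of phospholipids, was at 18.6, 23.8 and 19.7, then 7.15, 9.80 and 3.09, then 1.70, 3.23 and 1.08 FPKM. In both, TAI mouse 3 was the lowest TAI mouse. Their choice by likeness over the same 9 mice favoured this, so it is no separate evidence.

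Cell type markers moved between the groups beside the sterol genes. All 12 proliferation genes passed as lower in TAI and in TAI/IVIg against control, with sums of 63.6 to 156 FPKM in control, 26.5 to 35.5 in TAI and 19.1 to 33.4 in TAI/IVIg. TAI mouse 3, at 30.0 FPKM, lay between the other TAI mice in this sum, unlike in the members, and control mouse 1, the lowest control mouse in it, was the lowest control mouse in Srebf2, Idi1, Fdps and Lss but not in Hmgcs1, Fdft1 and Sqle. Without TAI mouse 3, 11 of the 12 passed in TAI, where 18.5% of all tested genes passed as lower. With all 9 mice, the shares of all tested genes were 26.1% lower and 8.81% higher in TAI, and 37.4% and 9.06% in TAI/IVIg. Of the 8 enterocyte genes 4 passed as higher in TAI and 5 in TAI/IVIg against control, and 0 as lower. In TAI 3 were higher without TAI mouse 3, and with the replicate block 3 were higher, Fabp2 no longer passing (adjusted p = 0.0516), and 1 was lower, Sis (0.0377). The stromal sum was 56.9 to 81.5 FPKM in control, 62.3 to 81.0 in TAI and 19.9 to 40.3 in TAI/IVIg, and the secretory sum 1040 to 2170, 1710 to 2870 and 596 to 1530. The immune sum, 63.4 to 388 in control, 42.0 to 233 in TAI and 26.1 to 239 in TAI/IVIg, overlapped in all groups. The part of these shifts in the levels of the sterol genes was not tested.

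**Figure D4:**
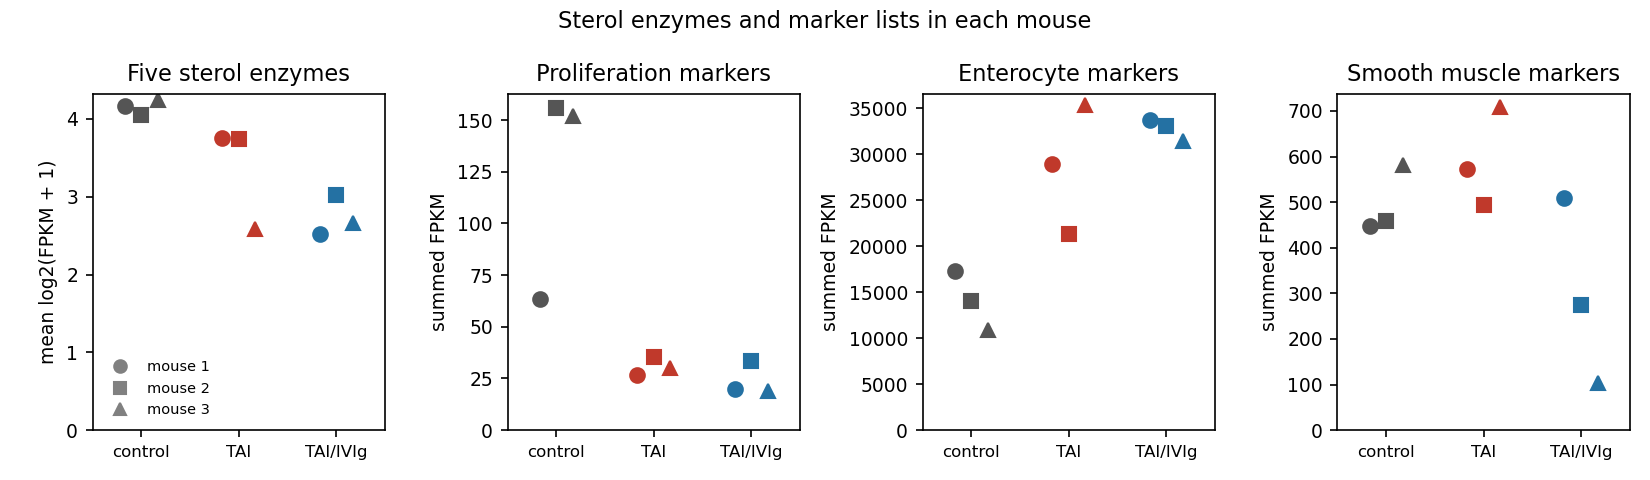
Mean log2(FPKM + 1) of the 5 tested sterol enzymes, and summed FPKM of the proliferation, enterocyte and smooth muscle markers, for each mouse (points, shaped by mouse number). TAI mouse 3 lies with the TAI/IVIg mice in the enzymes (2.58 against 3.76 and 3.74 in TAI mice 1 and 2) but between the other TAI mice in the proliferation markers.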

How the data were processed

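RNA of 9 jejunal samples was sequenced, 3 per group, and the groups came from the sample titles. The authors deposited a single table of FPKM values with a column per mouse (0 columns were left out). The submitters' processing notes name FastQC, Trimmomatic, STAR, featureCounts and DESeq2 and the builds mm10 and GRCm38, without versions. Whole reads were recovered for 100% of genes (tolerance 0.02 reads, a common factor being needed for 490), and the gene lengths behind the values equalled GENCODE M21 exon lengths in 98.5% of genes, to within 0.5%, so GRCm38 coordinates were used. Symbols were matched for 31146 identifiers. With limma 3.58.1 in R 4.3.3, log2(FPKM + 1) was fitted with a term per group, all 9 mice and a trended empirical Bayes step, over genes with at least 1 FPKM in at least 3 mice. Python 3.11.15 was used for summaries. The fit was tested on simulated data.

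Members and gene lists were chosen with earlier results of these data known. All members and all genes of the 5 sterol lists were to be named, with up to 3 genes per direction of the fatty acid and isoprenoid lists by unadjusted p in TAI against control (Scd1 and Fasn fall under this), and the 5 genes outside the lists most like the enzymes. Genes beyond that rule were named after their values were seen. Some genes of the lists count in the totals but are not reported here by name. Mice that carry an equal number in the labels deviated together across genes in the control and TAI groups (r of 0.271, 0.241 and 0.308). Where TAI/IVIg mice were involved, r was -0.296 to 0.201. Between control and TAI mice of unequal number r was at most 0.146, but between TAI/IVIg and control mice it reached 0.408. Whether the numbers mark pairs is therefore not known, and the main fit used no pairing. Alternatives were equal library medians, quantile normalization, a pseudocount of 0.1, a minimum mean of 5 FPKM, no filter, a fit without the trend, a fit of only the 6 mice in question, a replicate block, limma voom on recovered reads and the removal of each mouse.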

Additional observations from a re-analysis of the deposited data

How the results depend on the processing

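In TAI against control, where 2 members passed, 1 passed with a pseudocount of 0.1 or a mean of at least 5 FPKM, 0 with no filter, equal library medians, quantile normalization or limma voom with median-ratio library sizes, and 0 to 2 when each mouse was left out. Of the synthesis genes 13 passed, against 6 with no filter, 5 with equal medians, 6 with quantile normalization, 5 with voom and median-ratio sizes, and 3 to 14 with each mouse left out, fewest without control mouse 3 (3), control mouse 2 (5) or TAI mouse 1 (5), 6 without TAI mouse 3 and 8 without control mouse 1. In TAI/IVIg against control, equal medians took the members from 6 to 3 and the synthesis genes from 19 to 12, and quantile normalization took the latter to 12. Leaving out each mouse gave 5 to 6 members and 16 to 19 synthesis genes. In TAI/IVIg against TAI 0 members and 0 synthesis genes passed under every alternative run. Of the members' log2 fold changes under the alternatives, 17 of 113 and 12 of 113 lost their call in the comparisons of TAI and TAI/IVIg with control, and 0 reversed. In TAI all 17 losses were of Sqle and Lss, the 2 members with a call there. The 113 then include fits of members with no call to lose, so the share of calls lost was higher than these numbers show. The cause of these shifts was not tested.

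With the replicate block, 2 members and 14 synthesis genes passed in TAI against control, 6 and 19 in TAI/IVIg against control (Hmgcs1 at an adjusted p of 0.0499), and 0 and 0 in TAI/IVIg against TAI, so that the block changed no member's call. A pairing of control with TAI mice alone was not fitted. Leaving out a TAI mouse or a control mouse leaves that group with 2. The 13 to 50 reads of Fdps limit what its values can show.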
